A study of Mus musculus with 4 samples.

Results

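MHC class II molecules are the surface proteins that show peptides from engulfed material to CD4 T cells. Across 4 arrays of mouse cells sorted as group 3 innate lymphoid cells (ILC3s), 9 genes of this presentation pathway were followed. The array labelled Nr4a1 knockout carried a strong T cell signal, described below. The genes are H2-Aa, H2-Ab1, H2-Eb1, H2-DMa, H2-DMb1, H2-Oa, H2-Ob, Cd74 and Ciita. They were chosen by symbol for their role in the pathway, with earlier results of these data known. Of these, 8 had a row in the table, out of 19504 genes with a symbol, each with 1 row. Cd74 was not analysed here.

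The study sorted ILC3s, innate lymphocytes known for IL-22 and IL-17 production at mucosal barriers, as lineage negative, CD90 high and CD45 low. By their labels the samples were circZbtb20-/- ILC3s and their circZbtb20+/+ wild type, and Nr4a1-/- ILC3s and their Nr4a1+/+ wild type. CircZbtb20 is a circular RNA made from the Zbtb20 gene, and Nr4a1 is a nuclear receptor induced early after lymphocyte stimulation. Each genotype has 1 array. The labels used here give no tissue, strain, sex, age or number of animals, and do not say whether animals were pooled or how the alleles were made.

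As background, the classical class II molecules of the mouse are pairs of an α and a β chain. H2-Aa and H2-Ab1 encode the chains of I-A, and H2-Eb1 encodes the β chain of I-E. The invariant chain, Cd74, occupies the groove of a new molecule until H2-DM, a pair of H2-DMa and H2-DMb1, exchanges its last fragment for peptide. H2-DO, a pair of H2-Oa and H2-Ob best known from B cells and the thymus, restrains H2-DM. Ciita is the coactivator on which transcription of these genes depends, and interferon gamma induces it in many cells. B cells, dendritic cells, macrophages and some epithelial cells carry class II molecules. Among intestinal ILC3s, the CCR6-positive lymphoid tissue inducer-like cells are known to carry class II without the usual costimulatory ligands, and to restrain T cells through it.

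Apart from Ciita, on chromosome 16, the 7 other genes measured lie together on chromosome 17, in the order H2-Oa, H2-DMa, H2-DMb1, H2-Ob, H2-Ab1, H2-Aa and H2-Eb1 by RefSeq, with H2-DMb2 beside H2-DMb1. Class II promoters are known for a shared module, an X box bound by the RFX complex followed by a Y box bound by NF-Y, on which Ciita docks. The promoters below are shown because they carry that shared element in genes that moved together and in genes that did not. RefSeq promoter windows (GRCm38.p6, 250 bases before to 50 bases after the start) were listed for 6 of the 9 genes. They were searched on both strands for GNAAC, a half-site of the RFX type with any base at N, followed on the same strand by GATTGG, a Y box core. The starts of the motifs had to lie 25 to 35 bases apart, a range set with these promoters in view, and the motifs do not overlap. The module was found in 5 of the 6 genes, always on the strand of the gene, and in 214 of 32851 promoter windows of all genes (0.651%). GATTGG alone was in 16.1% of all windows and GNAAC alone in 84.8%. H2-DMa, with 2 windows, held no such module, and H2-Ab1 and Ciita had no window in the table. The 150 bases before the start are given 5′ to 3′ on the strand of the gene, with the half-site and the Y box core in capitals.
H2-Aa, chr17:34287824-34287973, minus strand: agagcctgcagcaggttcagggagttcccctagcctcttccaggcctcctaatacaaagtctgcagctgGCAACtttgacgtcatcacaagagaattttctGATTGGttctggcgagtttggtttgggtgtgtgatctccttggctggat
H2-Eb1, chr17:34305717-34305866, plus strand: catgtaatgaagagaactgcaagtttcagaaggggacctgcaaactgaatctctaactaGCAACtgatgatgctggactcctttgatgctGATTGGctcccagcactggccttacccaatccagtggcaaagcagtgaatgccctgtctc
H2-DMb1, chr17:34153041-34153190, plus strand: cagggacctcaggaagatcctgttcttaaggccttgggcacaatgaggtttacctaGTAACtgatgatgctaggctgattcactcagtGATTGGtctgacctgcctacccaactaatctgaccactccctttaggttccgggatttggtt
H2-Oa, chr17:34092229-34092378, plus strand: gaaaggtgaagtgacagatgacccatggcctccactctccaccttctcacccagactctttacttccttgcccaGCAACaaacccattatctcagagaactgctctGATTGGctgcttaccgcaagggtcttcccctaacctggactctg
H2-Ob, chr17:34238755-34238904, plus strand: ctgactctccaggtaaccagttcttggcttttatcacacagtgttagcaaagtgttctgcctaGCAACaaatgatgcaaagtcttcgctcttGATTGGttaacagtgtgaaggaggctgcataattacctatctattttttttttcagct

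The spacing between the starts of the half-site and the Y box was 32 bases in H2-Aa, H2-DMb1 and H2-Oa, 31 in H2-Eb1 and 29 in H2-Ob. The Y box core began 49 bases before the start in H2-Aa and 44 in H2-Oa, and 58 to 62 bases before it in H2-Eb1, H2-DMb1 and H2-Ob. A match of letters is a description and not a binding site, and a window without one says nothing about the factor. None of the genes with a window in the lists of class II transcription factors, interferon gamma input, antigen processing, costimulation or MHC class I presentation held the module. Of the class II genes outside the members, H2-Eb2 held it and H2-DMb2 did not.

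The deposited values are log2 expression values, with array medians between 4.34 and 4.51 over all rows and a ceiling at 19.93 that no member reached. Each genotype has 1 array, so no value has a replicate error, and precision is limited by the small number of arrays. A gene is called higher or lower here when it differs at least 2-fold (a log2 difference of 1) and the higher of its values reaches that array's median; no test stands behind a call. This rule called many genes in the knockout comparisons, and its share over all genes past the filter is given beside the counts of members and of gene lists. Nr4a1 stood at 11.63 in its knockout and at 18.11 in the paired wild type. The array labelled Nr4a1 knockout stood apart in its cell markers. All 10 measured T cell markers were higher there, where 31.9% of all genes past the filter were, with a median difference of 10.16, and Kit, a receptor of ILC3s, was at 5.48 against 18.36 in its wild type. Results for the Nr4a1 knockout rest on that array, and their link to the T cell signal was not tested. The circZbtb20 and wild-type comparisons do not use its values. Whether normalization across the arrays let it shape the others was not tested. In a sorted bulk sample, fewer cells of a type and less RNA per cell cannot be told apart.

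The classical chains stood at least 4.13 above the array median on every array. H2-Aa stood at 12.50 in the circZbtb20 knockout and 11.49 in its wild type, and at 9.90 in the Nr4a1 knockout and 13.39 in its wild type. H2-Ab1 stood at 9.27 in the circZbtb20 knockout and 11.39 in its wild type, and at 8.84 in the Nr4a1 knockout and 13.18 in its wild type. H2-Eb1 was at 12.10 in the circZbtb20 knockout and 9.93 in its wild type, and at 8.47 in the Nr4a1 knockout and 12.44 in its wild type. All 3 genes were highest in the Nr4a1 wild type and lowest in the Nr4a1 knockout. They differed in the order between these ends: for H2-Aa and H2-Eb1 the circZbtb20 knockout came above its wild type, and for H2-Ab1 below it. For H2-Ab1 the 2 knockout arrays differed by less than 2-fold, and for H2-Aa and H2-Eb1 the circZbtb20 knockout and the Nr4a1 wild type did.

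The peptide-exchange genes were nearer the array medians. H2-DMb1, the β chain of H2-DM, stood at 6.59 in the circZbtb20 knockout and 7.69 in its wild type, and at 7.40 in the Nr4a1 knockout and 9.97 in its wild type. H2-DMa, the α chain, stood at 4.81 in the circZbtb20 knockout and 4.51 in its wild type, and at 4.55 in the Nr4a1 knockout and 5.77 in its wild type. Both chains were highest in the Nr4a1 wild type, and on the other 3 arrays H2-DMa lay within 0.43 of the array median. H2-Oa, the α chain of H2-DO, ran the other way in the Nr4a1 pair, at 6.58 in the knockout and 5.70 in its wild type, and stood at 5.69 in the circZbtb20 knockout and 5.23 in its wild type. H2-Ob, the β chain, was at 3.77 in the circZbtb20 knockout and 5.46 in its wild type, and at 6.46 in the Nr4a1 knockout and 3.60 in its wild type. H2-Ob was thus lowest on the array where the classical chains were highest, and under the array median both there and in the circZbtb20 knockout.

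Ciita, the coactivator, lay only 0.43 to 1.45 above the array medians. It stood at 5.05 in the circZbtb20 knockout and 5.17 in its wild type, and at 4.77 in the Nr4a1 knockout and 5.96 in its wild type. Its range over the 4 arrays was 1.19, against 3.49 for H2-Aa and 4.34 for H2-Ab1. Ciita too was highest in the Nr4a1 wild type and lowest in the Nr4a1 knockout. Differences between values this close to the array medians are poorly measured.

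**Figure D1:**
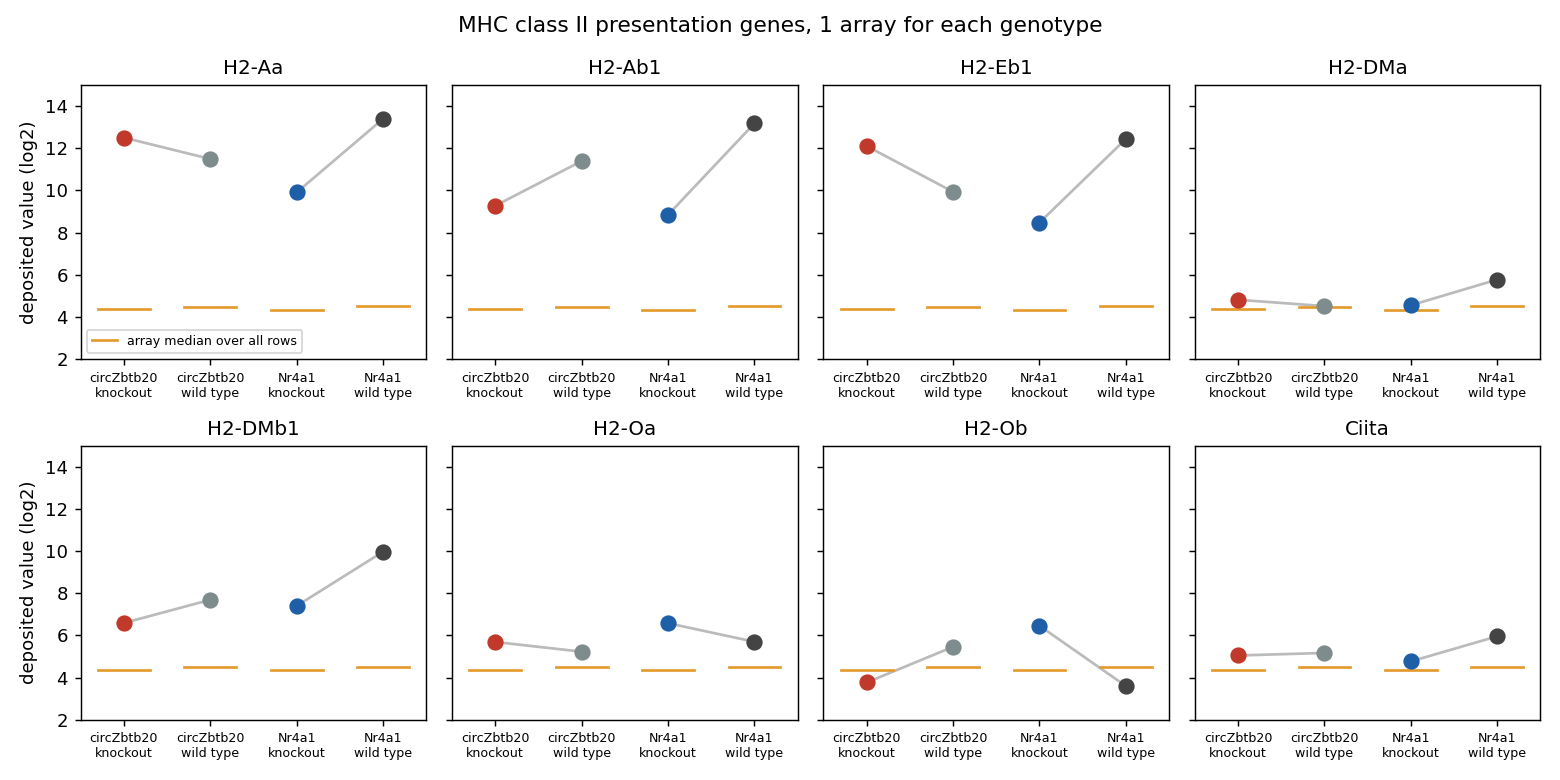
Deposited log2 values (vertical axis) of the 8 measured genes on the 4 arrays, 1 point for each array, with a grey line joining each knockout to its own wild type and an orange bar at the array median over all rows. H2-Aa, H2-Ab1 and H2-Eb1 run between 8.47 and 13.39 and are highest in the Nr4a1 wild type, where H2-Ob is lowest at 3.60.

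In the circZbtb20 knockout the class II genes did not move in 1 direction against their own wild type. H2-Eb1 was higher by 2.17 and H2-Aa by 1.01, while H2-Ab1 was lower by -2.12, H2-Ob by -1.69 and H2-DMb1 by -1.10, all as log2 differences. H2-Oa at 0.46, H2-DMa at 0.30 and Ciita at -0.12 differed by less than 2-fold. Of the 8 genes, 2 were higher and 3 lower, and the rule called 27.3% of all genes past the filter higher and 19.4% lower. The members' median difference was 0.09, beside 0.04 over all genes and 0.17 over those past the filter. Neither the count nor the median sets these genes apart in that comparison. Under quantile and cyclic loess normalization H2-Aa stood at 0.52 and 0.61, under 2-fold.

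Within that comparison the chains of a single molecule parted. H2-Aa and H2-Ab1, whose products pair as I-A, differed by 3.13 log2 units in their response, with the α chain higher and the β chain lower. H2-DMa and H2-DMb1, which pair as H2-DM, parted by 1.40, and H2-Oa and H2-Ob by 2.15. In each of these pairs the α chain had the higher difference. The other β chain of H2-DM, H2-DMb2, was at 2.23, above H2-DMa at 0.30. H2-DMa lay near the array median on both arrays, and H2-Ob was under it in the knockout. How far other pairs of genes part in this comparison was not computed. Of all genes past the filter, 9.48% had a higher difference than H2-Eb1 and 6.14% a lower one than H2-Ab1.

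The choice of wild type decided several of these values. Against the Nr4a1 wild type, H2-Ab1 was lower by -3.91 and H2-DMb1 by -3.38. There H2-Eb1 was at -0.34 and H2-Aa at -0.89, so neither stayed higher, and H2-Ob was at 0.17 with both values under the array medians. H2-Oa was at -0.01, Ciita at -0.91 and H2-DMa at -0.96. Of the 8 genes, 0 were higher and 2 lower against that wild type, where the rule called 26.4% of all genes higher and 21% lower. H2-Ab1 and H2-DMb1 were therefore the members that were lower than either wild type by the rule. Both comparisons use the same knockout array, and the share of all genes that pass in both was not computed. The gap between H2-Aa and H2-Ab1 was 3.02 against the Nr4a1 wild type, near the 3.13 against its own.

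In the Nr4a1 knockout the classical chains were lower together. H2-Ab1 was lower by -4.34, H2-Eb1 by -3.97 and H2-Aa by -3.49, sizes of 20.3-fold, 15.7-fold and 11.2-fold on the deposited scale. H2-DMb1 was lower by -2.57, H2-DMa by -1.22 and Ciita by -1.19. H2-Ob was higher by 2.86, and H2-Oa, at 0.88, did not reach 2-fold. Of the 8 genes, 6 were lower and 1 higher, and the rule called 20.8% of all genes past the filter lower and 31.9% higher. The members' median of -1.90 stood beside 0.00 over all genes and 0.29 over those past the filter. Lower differences than that of H2-Ab1 were found in 3.38% of genes past the filter, and than that of H2-Aa in 4.88%.

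For the classical chains, H2-DMb1, H2-DMa and Ciita these differences were smaller against the circZbtb20 wild type, where the 6 genes stood lower than in the Nr4a1 wild type. There H2-Ab1 was lower by -2.55, H2-Aa by -1.59 and H2-Eb1 by -1.46. H2-DMb1 at -0.29, Ciita at -0.40 and H2-DMa at 0.04 did not reach 2-fold there. H2-Oa was higher by 1.35 and H2-Ob by 1.00. Of the 8 genes, 3 were lower and 2 higher, where the rule called 20.4% of all genes lower and 32.7% higher, and the members' median was -0.34. The classical chains were thus lower than in either wild type, and H2-Ob was higher than in either by the rule, with 1.00 on its threshold. Here too the same knockout array stands in both comparisons, and the share of all genes that pass in both was not computed.

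**Figure D2:**
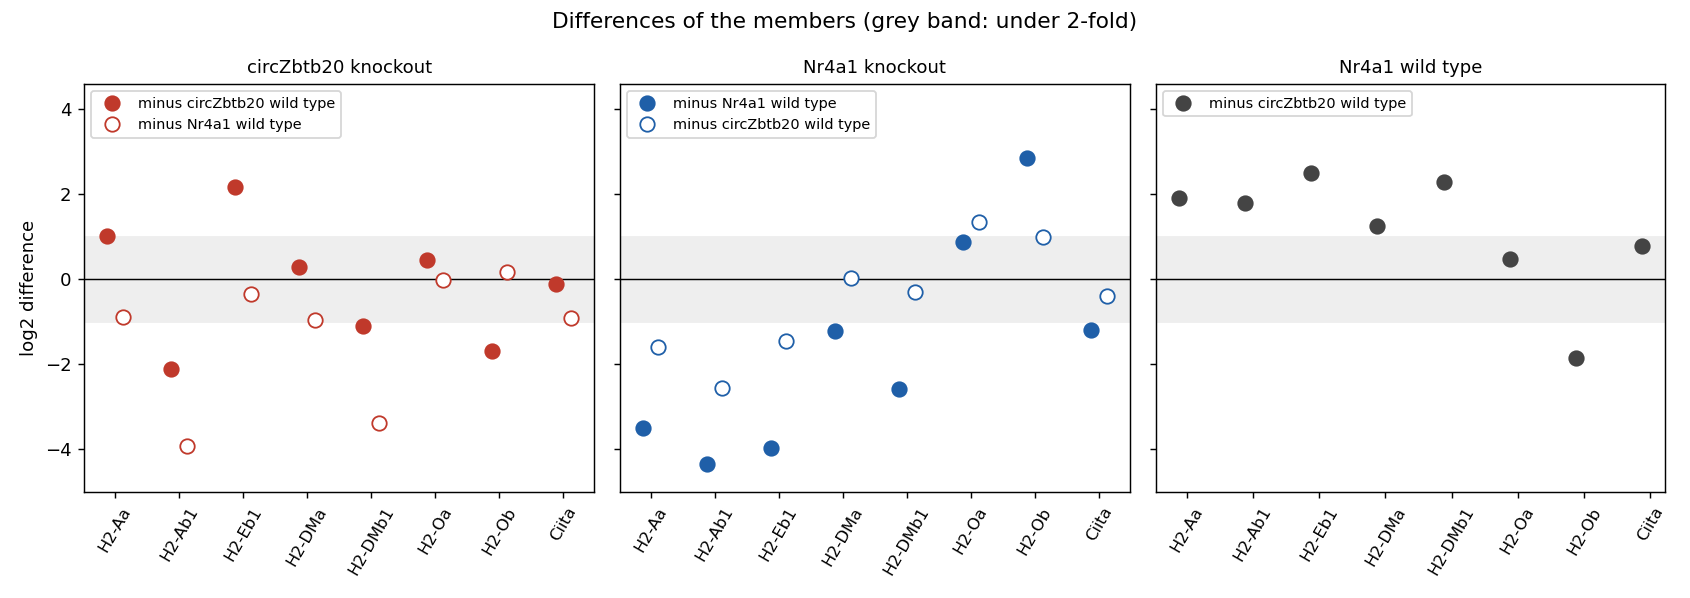
Log2 differences (vertical axis) of the 8 measured genes, with filled points for each knockout minus its own wild type, open points for the knockout minus the other wild type, and the Nr4a1 wild type minus the circZbtb20 wild type at the right. H2-Ab1 lies below the grey band of differences under 2-fold against both wild types in both knockouts, from -2.12 to -4.34.

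The wild types themselves differed in most class II genes. In the Nr4a1 wild type, set against the circZbtb20 wild type, H2-Eb1 was higher by 2.51, H2-DMb1 by 2.28, H2-Aa by 1.90, H2-Ab1 by 1.79 and H2-DMa by 1.26. Ciita at 0.79 and H2-Oa at 0.47 did not reach 2-fold, and H2-Ob was lower by -1.86. Of the 8 genes, 5 were higher and 1 lower, while the rule called 8.48% of all genes past the filter higher and 6.77% lower. The members' median was 1.52, beside 0.03 over all genes and 0.05 over those past the filter.

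H2-Eb1, H2-DMb1, H2-Aa and H2-Ab1 lay far out in that comparison of the 2 wild types, and H2-Ob did at the other end. Only 0.598% of genes past the filter had a higher difference than H2-Eb1, 0.785% than H2-DMb1, 1.31% than H2-Aa and 1.62% than H2-Ab1. A lower difference than that of H2-Ob was found in 0.953%. The share with a higher difference was 4.85% for H2-DMa, 13.6% for Ciita and 26.2% for H2-Oa. The chains of I-A moved alike here, parting by 0.11, while H2-Oa and H2-Ob parted by 2.33. The Nr4a1 wild type stands in both this comparison and that of the Nr4a1 knockout, so the pair of results is not independent. T cell markers also differed between the wild types: of 10, 5 were higher and 1 lower in the Nr4a1 wild type (median 0.82), beside 8.48% and 6.77% of all genes. Cd3e was higher by 2.44 and Cd8a by 2.37, and the lower one was Cd3g, by -1.12. Their part in the class II result was not tested.

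**Figure D3:**
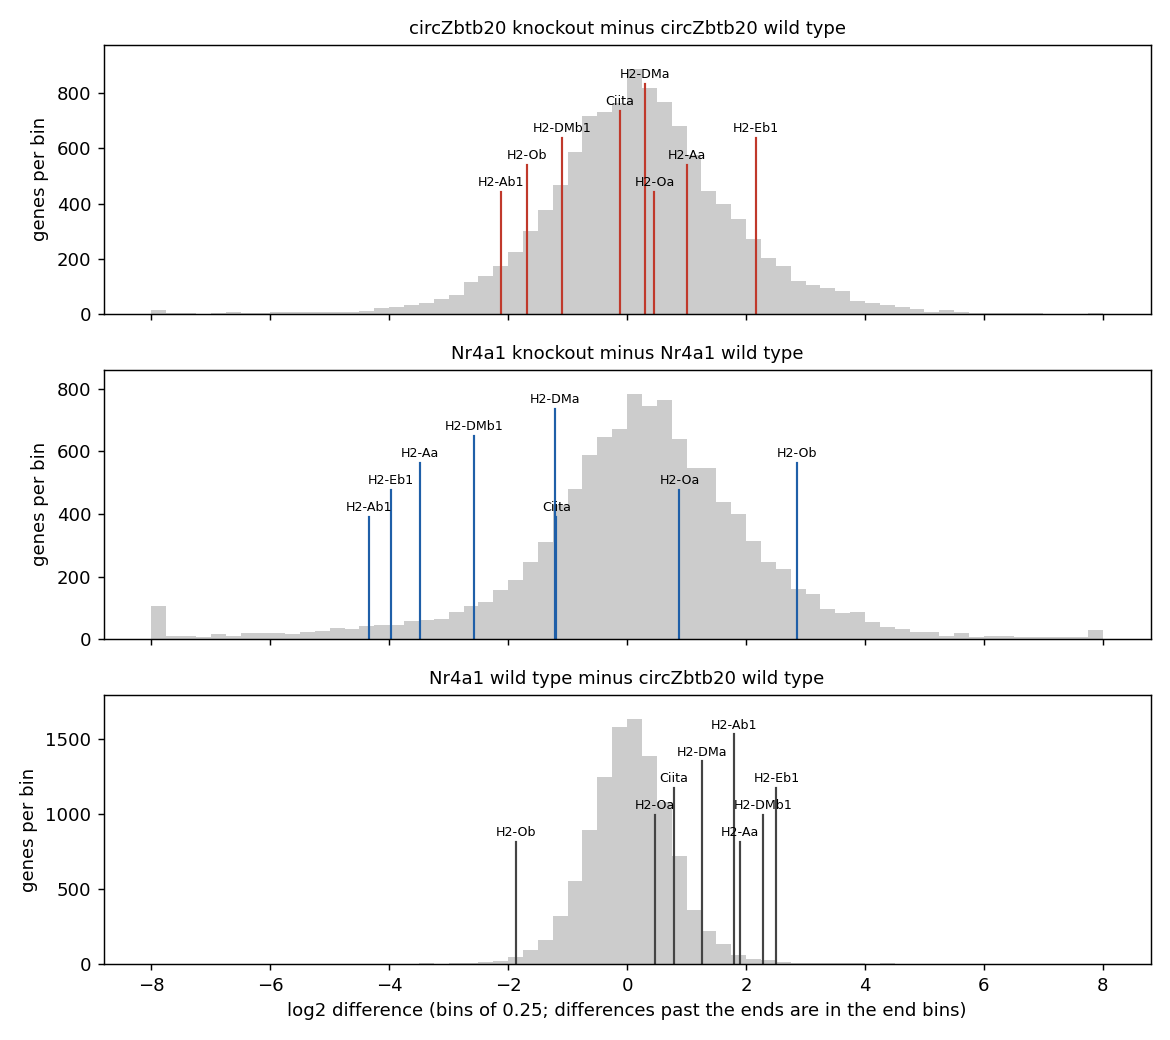
Histograms of the log2 differences (horizontal axis, bins of 0.25) of all tested genes in the 3 comparisons (those whose higher value reaches the array median), with genes per bin on the vertical axis and a vertical line at each of the 8 measured genes. Between the wild types H2-Eb1, H2-DMb1, H2-Aa and H2-Ab1 lie from 1.79 to 2.51, where few other genes are, whereas in the circZbtb20 comparison the members spread over the bulk of the genes.

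With both wild types treated as 1 group, a limma fit across all genes called 0 of the 8 members in either knockout at an adjusted p under 0.05. It called 0% of all 19504 genes for the circZbtb20 knockout and 11.2% for the Nr4a1 knockout. The lowest adjusted p among the members was 0.165 for the circZbtb20 knockout and 0.108 for the Nr4a1 knockout, both for H2-Ab1. At an unadjusted p under 0.05 limma held 1 member, H2-Ab1, for the circZbtb20 knockout, where it held 24% of all genes. For the Nr4a1 knockout it held 2, H2-Ab1 and H2-Oa, where it held 27.4%. That fit takes its error from the wild-type pair, with 1 residual degree of freedom before moderation.

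Class II loci outside the members were read next. H2-DMb2, a close copy of H2-DMb1 that also makes a β chain of H2-DM, stood at 7.31 in the circZbtb20 knockout and 5.08 in its wild type, higher by 2.23. In the Nr4a1 pair it was at 6.92 in the knockout and 6.82 in its wild type, a difference of 0.10. H2-DMb2 and H2-DMb1 thus parted by 3.33 in the circZbtb20 comparison and by 2.67 in that of Nr4a1. Probes may not separate such near-identical copies, so the split between them is uncertain. H2-Eb2, whose product resembles the I-E β chain, lay between 3.60 and 4.15, under the median of every array. Class II genes are highly polymorphic between mouse strains, and since the strain is not given, the fit of the probes to the alleles was not tested.

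Regulators of class II transcription moved in both directions, but no RFX or NF-Y gene was called lower in a knockout against its own wild type. In the Nr4a1 knockout Nfya was higher by 2.35, Nfyc by 2.23, Rfxap by 2.17 and Nfyb by 1.98. Rfxank at 0.84 and Rfx5 at -0.10 did not reach 2-fold there. In the circZbtb20 knockout Rfx5 at -0.78 and Nfyb at -0.77 did not either. Among 16 genes for RFX, NF-Y and other regulators of class II or Ciita, the Nr4a1 knockout had 9 higher and 3 lower, and the median difference was 1.57. Of all genes past the filter, 31.9% were higher and 20.8% lower there. Hdac1, a deacetylase, was at 14.44 against 9.98, higher by 4.46. The lower ones were Prdm1, which encodes the repressor Blimp-1, by -4.82, Spi1, which encodes the myeloid and B cell factor PU.1, by -3.91, and Irf4 by -2.39. In the circZbtb20 knockout the 16 split into 5 higher and 4 lower (median 0.02), beside 27.3% and 19.4% of all genes. Spi1 was at 6.74 in that knockout and 11.95 in its wild type, lower by -5.21. Nfyc, an NF-Y subunit, was higher by 2.40, Prdm1 by 2.35 and Rfxap, an RFX subunit, by 2.26.

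Between the wild types 3 of these 16 genes were higher and 0 lower, beside 8.48% and 6.77% of all genes. Spi1 was higher by 3.0, at 14.95 in the Nr4a1 wild type against 11.95 in the circZbtb20 one, and Hdac1 and Ep300, an acetyltransferase, were each higher by 1.11. Spi1 was thus highest on the array where the classical chains were highest, but their lowest arrays differed. The lowest Spi1 value, 6.74, belonged to the circZbtb20 knockout. On that array H2-Aa (12.50) and H2-Eb1 (12.10) exceeded their paired wild-type values, and H2-Ab1 (9.27) fell short of its own. All 3 classical chains were lowest on the Nr4a1 knockout array, where Spi1 read 11.04. The RFX gene Rfx5 ranged only from 6.12 to 7.10 over the 4 arrays.

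Among the genes of the interferon gamma input to Ciita, more were lower than higher in each knockout. Among 13 measured, the circZbtb20 knockout had 7 lower and 3 higher (median -1.61), and the Nr4a1 knockout 8 lower and 3 higher (median -1.73). Of all genes past the filter, 19.4% were lower and 27.3% higher in the circZbtb20 knockout, and 20.8% lower and 31.9% higher in the Nr4a1 knockout. Interferon gamma itself did not share that direction in the circZbtb20 knockout, where Ifng had a level of 18.25 against 8.37 in its wild type. The receptor genes Ifngr1 and Ifngr2 were higher there too, by 1.67 and 1.0. Cxcl10, a chemokine induced by interferon, was lower there by -4.23, Irf1, an interferon-induced factor that acts on Ciita, by -2.65 and Tgfb1, a cytokine that represses Ciita, by -3.31. The list thus holds genes that restrain Ciita as well as genes that induce it, so its counts give no direction of the input. Ciita stayed at 5.05 in the circZbtb20 knockout beside the high Ifng value. In the Nr4a1 knockout Cxcl10 was lower by -8.49, the kinase gene Jak2 by -6.20, Ifng by -5.41 and the chemokine Cxcl9 by -4.46. Between the wild types, Ifng was higher by 1.79 in the Nr4a1 wild type and the interferon-induced GTPase Gbp2 was lower by -1.46, the 2 genes of the list past 2-fold there, a count near the 8.48% higher and 6.77% lower of all genes.

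Antigen processing and class II traffic moved in both directions. Among 16 genes, the Nr4a1 knockout had 4 lower and 3 higher (median -0.42), and the circZbtb20 knockout 6 higher and 3 lower (median 0.55). For the Nr4a1 knockout the shares over all genes were 20.8% (lower) and 31.9% (higher), and for the circZbtb20 knockout 27.3% (higher) and 19.4% (lower), so the counts of lower genes lay near them. Lgmn, a lysosomal protease that cuts antigens, had a level of 6.30 in the Nr4a1 knockout and of 10.97 in the wild type of that pair, lower by -4.67. Marchf8, a ubiquitin ligase that can remove class II molecules from the surface, was lower by -3.51 in the Nr4a1 knockout and higher by 3.01 in the circZbtb20 knockout. Cd82, a tetraspanin, was lower by -4.04 and Ap1m1, an adaptor subunit, higher by 3.74 in the Nr4a1 knockout. In the circZbtb20 knockout the lysosomal membrane gene Lamp1 was lower by -2.79, Lamp2 higher by 1.91 and Sppl2a, a protease that clears the invariant chain remnant, lower by -1.79.

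The same list gave 4 genes higher and 0 lower between the wild types, beside 8.48% and 6.77% of all genes. Marchf8 was higher by 2.43 in the Nr4a1 wild type, Lgmn by 2.30, Ifi30, a thiol reductase that unfolds antigens, by 1.40 and Marchf1 by 1.08.

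Costimulatory ligands, which with class II decide whether a T cell is activated, varied between arrays. Cd80, a ligand of CD28 and CTLA-4, stood at 5.36 in the circZbtb20 knockout and 7.43 in its wild type, and at 4.66 in the Nr4a1 knockout and 8.48 in its wild type. Cd86, its partner, ran from 3.85 to 5.72 and was above the array median only in the Nr4a1 wild type. Cd274, which encodes PD-L1, stood at 10.55 in the circZbtb20 knockout and 9.43 in its wild type, and at 7.77 in the Nr4a1 knockout and 11.82 in its wild type. Among the 8 ligands and class II receptors measured, each knockout had 3 lower and 1 higher, and the Nr4a1 wild type had 3 higher and 0 lower against the circZbtb20 wild type. Over all genes past the filter, 19.4% and 20.8% were lower in the circZbtb20 and Nr4a1 knockouts, and 8.48% were higher in the Nr4a1 wild type. The higher one in the Nr4a1 knockout was Cd4, whose product binds class II, at 16.79 against 8.95, and Cd4 also marks T cells. In the circZbtb20 knockout Cd40 was lower by -1.57 and Cd4 by -1.43.

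MHC class I presentation, which shows peptides from inside the cell, was measured for comparison. Among 16 genes, the Nr4a1 knockout had 4 lower and 4 higher (median 0.06), and between the wild types 0 were higher and 1, Psmb10, was lower, at -1.58 (median 0.05). These counts lay near the shares over all genes, of 20.8% lower and 31.9% higher in the Nr4a1 knockout and of 8.48% higher and 6.77% lower between the wild types. H2-K1, a class I heavy chain, was lower by -5.87 in the Nr4a1 knockout and H2-D1, another, by -2.90. The immunoproteasome subunit Psmb8 was higher by 3.59 and Cd1d1, a lipid-presenting molecule, by 3.41. In the circZbtb20 knockout 5 were lower and 4 higher, beside 19.4% and 27.3% of all genes, with Calr, a chaperone, at -2.67, Tapbp, of the peptide-loading complex, at -2.36, Pdia3 at -2.25 and H2-T23 at -2.07. The 5 class II genes that were higher in the Nr4a1 wild type thus stood beside 0 of 16 class I genes, with B2m at the ceiling there; the difference between the lists was not tested.

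**Figure D4:**
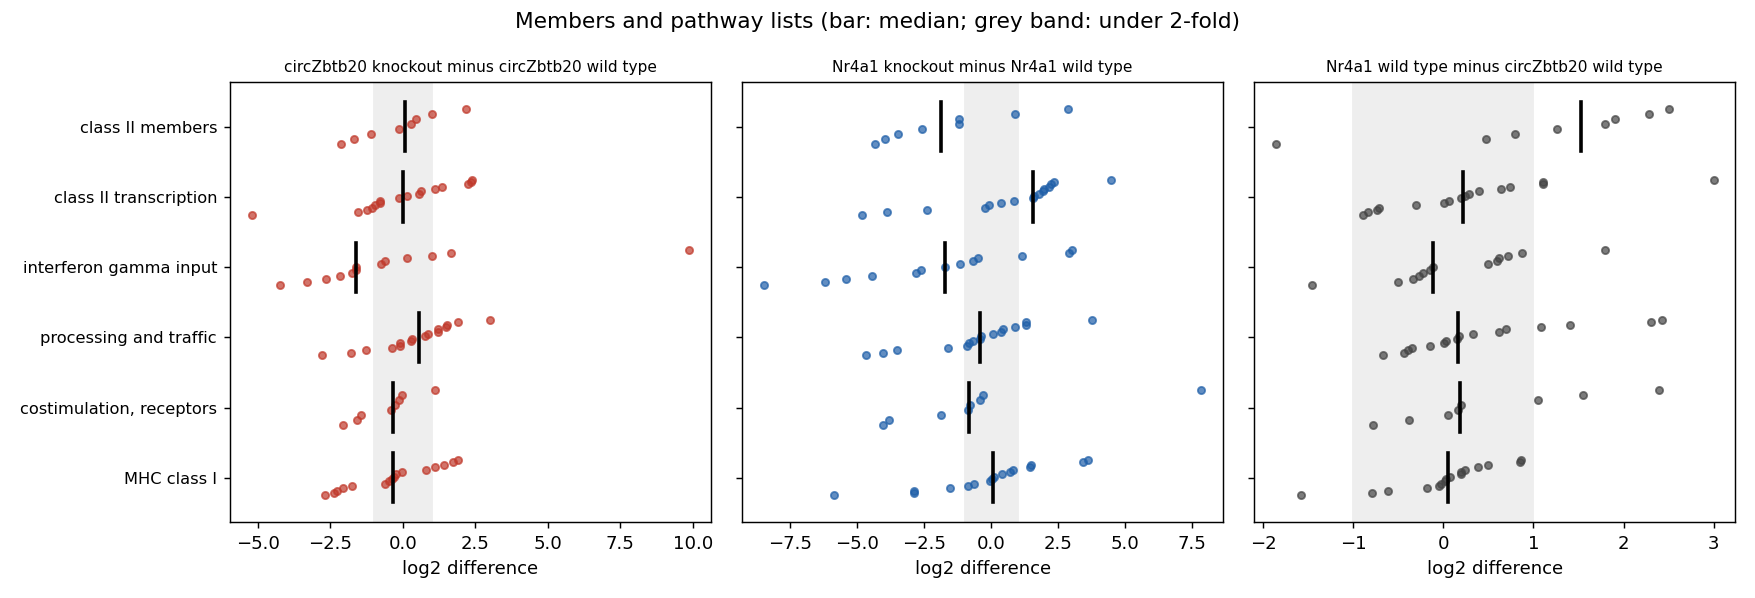
Log2 differences (horizontal axis, a scale for each panel) of each measured gene of the class II members and of 5 pathway lists in the 3 comparisons, with a black bar at the median. Between the wild types the members have a median of 1.52, while the medians of the 5 other lists lie from -0.12 to 0.22; B2m, of the class I list, was at the ceiling in the Nr4a1 wild type, so its points in the 2 comparisons that use that array are bounds.

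Other cells that carry class II were followed through their markers, since the sort or its gate could let some through. Epithelial markers moved with the classical chains on the Nr4a1 pair. Among 10, the Nr4a1 knockout had 9 lower and 0 higher (median -3.05), and the Nr4a1 wild type had 8 higher and 0 lower against the circZbtb20 wild type (median 2.02). Of all genes past the filter, 20.8% were lower in the Nr4a1 knockout and 8.48% higher in the Nr4a1 wild type. The summed level of the epithelial markers, as log2 of the summed linear values, was 7.63 in the Nr4a1 knockout and 12.4 in its wild type, and 10.0 in both the circZbtb20 knockout and its wild type. In the circZbtb20 knockout 4 of the 10 were higher and 2 lower, beside 27.3% and 19.4% of all genes. The part of epithelial cells in the class II result was not tested.

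Macrophage and monocyte markers were arranged likewise in the Nr4a1 pair. Among 10 measured, the Nr4a1 knockout had 6 lower and 0 higher (median -1.25), and the Nr4a1 wild type had 4 higher and 0 lower against the circZbtb20 wild type (median 1.11), beside the same 20.8% and 8.48% of all genes. Lyz2, a lysozyme of myeloid cells, was at 8.12 in the Nr4a1 knockout and 12.17 in its wild type, and Cd14, a receptor for bacterial lipid, was at 4.0 in the knockout and 9.0 in its wild type. Adgre1, Fcgr1 and Cx3cr1 of the same list did not reach 2-fold in either comparison, at -0.18, -0.09 and -0.87 in the Nr4a1 knockout and 0.26, -0.11 and -0.05 between the wild types. The summed level of the macrophage list was 9.06 in the Nr4a1 knockout and 12.5 in its wild type, and 9.69 in the circZbtb20 knockout and 10.5 in its wild type. Most of each sum came from Lyz2, which was at 9.13 in the circZbtb20 knockout and 9.9 in its wild type. Against its wild type the circZbtb20 knockout had 3 of the 10 lower and 0 higher (median -0.70), beside 19.4% and 27.3% of all genes. The share of such cells in the class II result was not tested.

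Several defining B cell and dendritic cell markers were low, and others were not. Ms4a1, Pax5, Cr2 and Cd22, which define B cells, were under the array median on all 4 arrays, as were Flt3, Xcr1, Zbtb46 and Clec9a of dendritic cells. Of 9 B cell markers 4 were at or above the median on every array, with summed levels of 9.74 in the circZbtb20 knockout, 8.99 in its wild type, 7.76 in the Nr4a1 knockout and 8.81 in the Nr4a1 wild type. Ebf1, a B cell transcription factor, was above the median on every array, at 9.19 in the circZbtb20 knockout and 7.85 in its wild type, and at 6.02 in the Nr4a1 knockout and 7.26 in its wild type. Fcer2a, which encodes CD23, ran from 5.64 to 6.57. Cd79a, a chain of the B cell receptor, was at 4.41 in the Nr4a1 knockout and 6.99 in its wild type. Of 12 dendritic cell markers 7 reached the median in the circZbtb20 knockout and 5 on each other array. Itgax, from 4.55 to 4.64, and Siglech, from 4.61 to 4.91, lay a little above the median on every array. Batf3, a factor of conventional dendritic cells, was at 7.38 in the circZbtb20 knockout and 4.68 in its wild type, higher by 2.70. The summed levels of the dendritic cell markers, from 11.8 to 14.5, came almost wholly from Ccr7, which lymphoid tissue inducer-like ILC3s also carry, at 12.60 in the circZbtb20 knockout, 13.10 in its wild type, 11.70 in the Nr4a1 knockout and 14.48 in the Nr4a1 wild type. The part of B cells and dendritic cells in the class II result was not tested.

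Markers of the inducer-like ILC3s known to carry class II were read in the same way. Among 8, the Nr4a1 wild type had 0 higher and 1 lower against the circZbtb20 wild type (median -0.40), a count near the 8.48% and 6.77% of all genes. Ccr6 was at 8.11 in the circZbtb20 knockout and 5.30 in its wild type, and at 3.28 in the Nr4a1 knockout and 5.40 in its wild type. The circZbtb20 knockout had 3 of the 8 higher and 3 lower (median 0.13), beside 27.3% and 19.4% of all genes. Ltb was higher by 5.09, Ccr6 by 2.81 and Tnfsf11 by 1.12, and Cd4 was lower by -1.43, Il1r1 by -1.38 and Lta by -1.12. In the Nr4a1 knockout 5 of the 8 were lower and 2 higher, beside 20.8% and 31.9% of all genes, with Il1r1 lower by -9.09. The higher ones there were Cd4, which is also in the T cell list, by 7.84 and Ltb by 3.21. The 10 general ILC3 markers measured had a median of -3.73 there and of 0.09 between the wild types. Il22 was at the ceiling on 3 arrays. On the Nr4a1 knockout array the rule called 7 of these 10 lower and 2 higher, beside the same 20.8% and 31.9%. The 2 higher were the genes of the sort markers CD90 (Thy1, by 3.64) and CD45 (Ptprc, by 3.39). Ptprc was highest on that array, at 15.93, although the sort was for low CD45. Il23r was at 4.73 there and 15.43 in the paired wild type, and Rora at 5.59 and 17.38. The bearing of these markers on the class II result was not tested. Of 9 markers of ILC3s with natural cytotoxicity receptors and of ILC1s, the Nr4a1 knockout had 8 lower and 0 higher, and between the wild types 2 were higher and 0 lower. Of all genes 20.8% were lower in that knockout, and 8.48% were higher between the wild types.

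**Figure D5:**
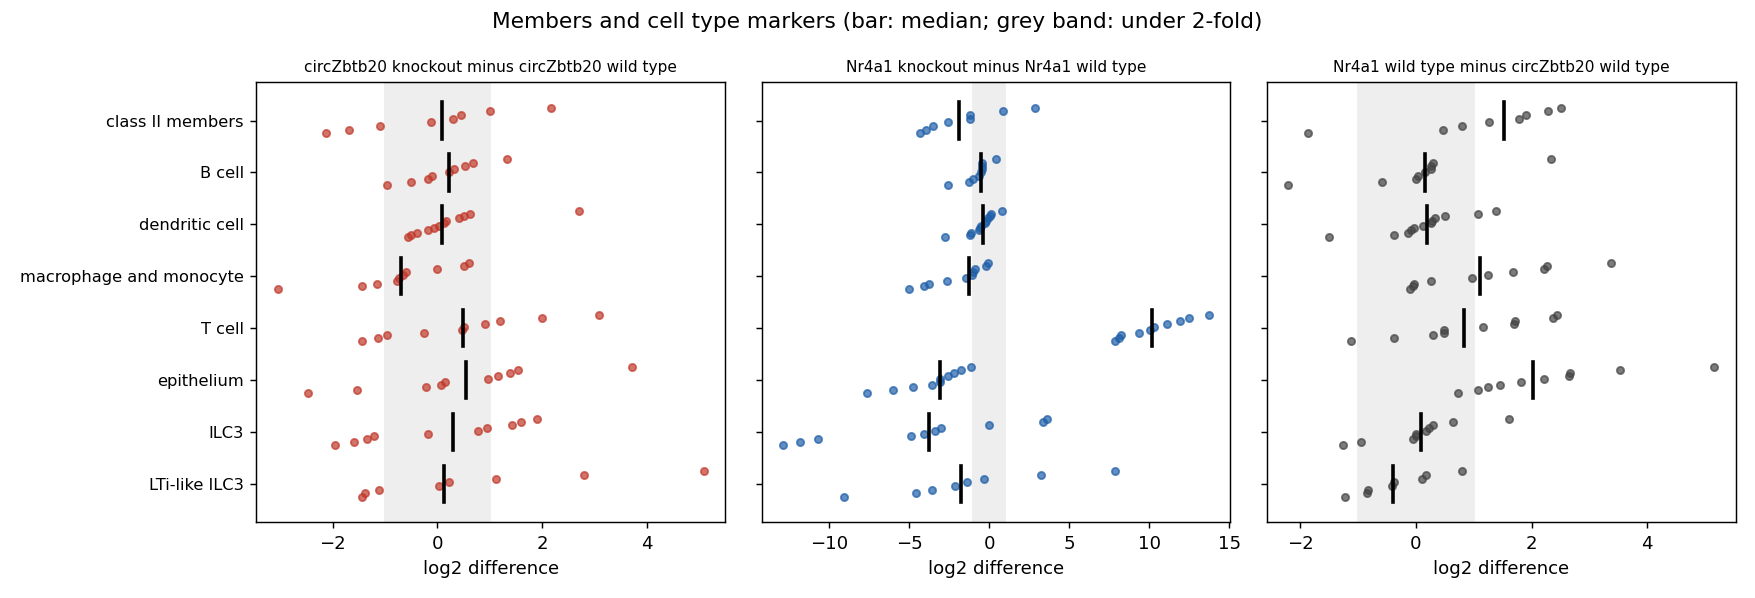
Log2 differences (horizontal axis, a scale for each panel) of the class II members and of the markers of 7 cell types in the 3 comparisons, with a black bar at the median of each list. The epithelial markers lie on the same side as the classical chains in the 2 comparisons that use the Nr4a1 wild type, with medians of -3.05 and 2.02, and T cell markers have a median of 10.16 in the Nr4a1 knockout.

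Genes whose 4 values ran most like those of H2-Aa, the member with the highest mean, were sought among 12199 genes by the root mean square difference of values centred on each gene's own mean. The nearest outside the members were Lrp1, an endocytic receptor, at 0.19, Phf1, a chromatin protein, at 0.21, and Cd274 at 0.22. Lrp1 was at 7.16 in the circZbtb20 knockout and 6.26 in its wild type, and at 4.66 in the Nr4a1 knockout and 8.54 in its wild type. Among the members, H2-Eb1 was nearest to H2-Aa at 0.46, followed by H2-DMa at 0.94, Ciita at 0.96, H2-DMb1 at 1.25 and H2-Ab1 at 1.26, with H2-Ob farthest at 2.47. For Ciita, the nearest outside genes were Chac1 at 0.03, Lonrf1 at 0.05 and Amn at 0.05, and the nearest member was H2-DMa at 0.19. With 4 arrays, many genes lie close to any profile, so such closeness describes these arrays only.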

How the data were processed

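Gene expression was measured on 4 Affymetrix arrays of mouse cells sorted as ILC3s, 1 for each genotype. The label of the Nr4a1 knockout array was kept despite its T cell markers. The authors' deposited values are log2 expression values made, per the submitters' processing notes, with Affymetrix Power Tools and RMA; no version, setting or genome build is given in the sources used here. RMA includes quantile normalization, which hides a change in total RNA. Rows were named by the platform's probe table: of 22205 rows, 19571 had 1 symbol, 0 had several and 2634 had none. For 55 genes with several rows the row of highest mean was used, leaving 19504 genes; each member had 1 row.

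Samples were grouped by title. Each knockout was set against its paired wild type, and the wild types against each other. The rule of size and the medians were computed in Python 3.11.15. The fit with both wild types as 1 group used limma 3.58.1 (Benjamini-Hochberg adjustment). Counting and the fit were tested on simulated data. The alternatives were quantile and cyclic loess normalization, median centring, other filters, the mean over rows, the other wild type and the mean of both.

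Members, lists and the rule for naming genes (all members, and from each pathway list at most 4 of the greatest differences past the rule, with a list of at most 4 genes named whole) were chosen with earlier results of these data known; marker genes and others outside that rule were named after their values were seen. Listed genes without a row were not analysed here.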

Additional observations from a re-analysis of the deposited data

How the results depend on the processing

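With 1 array for each genotype, the results depended on the wild type chosen. Against the other wild type the circZbtb20 comparison gave 0 members higher and 2 called in all, with a median of -0.90, and the called H2-Aa at -0.89, H2-Eb1 at -0.34 and H2-Ob at 0.17 changed sign, as did the uncalled H2-DMa at -0.96 and H2-Oa at -0.01. Against the mean of both wild types it gave 0 higher and 2 called, with H2-DMa at -0.33, again of opposite sign. The Nr4a1 comparison gave 2 members higher and 3 lower against the other wild type, with a median of -0.34 and H2-DMa at 0.04, of opposite sign. Against the mean of both it gave 2 higher and a median of -1.11. Among scalings, quantile and cyclic loess normalization each left 1 member higher in the circZbtb20 comparison, since H2-Aa then stood at 0.52 and 0.61. Median centring gave 2 higher in the Nr4a1 comparison, with H2-Oa at 1.05, and moved the median of all genes there by 0.17. A filter 1 log2 unit above the median left 0 members lower between the wild types, because H2-Ob no longer passed. The limma fit with both wild types as 1 group called 0 members in each knockout at its adjusted p, with 1 and 2 at an unadjusted p under 0.05 in the circZbtb20 and Nr4a1 knockouts. Of 176 values of single members over these alternatives, 143 kept their call and moved by less than 0.67, the spread of the wild-type difference over genes, 29 moved more or changed their call, and 4 that had been called changed sign. A further 3 that had not been called crossed 0 and are counted among the others. The mean over rows could not change a member, each having 1 row, and the filters could change only a call. Against the other wild type 1 value stayed within that spread and kept its call, 11 moved and 4 called ones changed sign. Against the mean of both wild types 3 stayed and 13 moved. No paired analysis was possible because each group has 1 array. Low values near the array medians, as for Ciita, H2-DMa, H2-Oa and H2-Ob, limit what their differences show.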
